A study of Mus musculus with 20 samples.

Results

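Several nuclear genes of cytochrome c oxidase, the last enzyme of the respiratory chain, come as a common form and a form made mainly in certain tissues or conditions, and 9 such genes were followed in mouse fibroblasts treated with actinonin. The 9 genes were Cox4i1 and Cox4i2, Cox6a1 and Cox6a2, Cox6b1 and Cox6b2, and Cox7a2, Cox7a1 and Cox7a2l. They were chosen by name, through the RefSeq accession that the array's annotation gives each probe, with the earlier measured rises of Cox6a2 and Cox7a2l known. All 9 were among the 24258 genes and transcripts tested, of which 14253 had a symbol. They were read by 11 of 55681 probes, 3 of them for Cox7a2l and 1 for each other gene, and each probe was well above background in all 20 samples.

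The cells were embryonic fibroblasts of a Balb/c background, grown with added uridine, which lets cells with a failing respiratory chain divide. They received the ethanol carrier at 3 µl/ml, or actinonin at 150 µM for 6, 24, 48 or 72 h. Actinonin blocks peptide deformylase, which takes the formyl group off the first methionine of proteins made in bacteria and mitochondria. Each of the 5 groups held 4 samples, 2 labelled with Cy3 and 2 with Cy5, and the labels call the samples independent and pooled from 4 plates each. Whether they came from separate embryos is not stated, and the p-values refer to the spread among these samples alone, which may be partly technical. The labels place the carrier samples at 0 h and give none for each time, so all times share the same 4 carrier samples. Actinonin and hours in culture therefore cannot be told apart in the changes below.

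Cytochrome c oxidase, or complex IV, takes electrons from cytochrome c, passes them to oxygen and pumps protons across the inner mitochondrial membrane. Its catalytic core is encoded in mitochondrial DNA, and nuclear genes supply the subunits around it. The muscle forms Cox6a2 and Cox7a1 take the place of Cox6a1 and Cox7a2 in heart and skeletal muscle, Cox4i2 is known from lung and low oxygen, and Cox6b2 from testis. Cox7a2l, also called SCAF1, resembles Cox7a2 and is reported to join complex IV to complex III in supercomplexes. Whether its product does so in these Balb/c cells was not measured.

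The 20 samples lay in pairs on 10 two-colour arrays, and 50.8% to 70.5% of the spots of a sample were well above background. The upper values, 66.4% and 70.5%, came from 1 array, which held the second Cy3 carrier sample and the second Cy5 sample of 48 h. Slide 1 held 4 samples, 2 of carrier and 2 of 6 h, and slide 2 held the other 16. For 24, 48 and 72 h, then, 2 of the 4 carrier samples were on the same slide as the treated samples. Every change below comes from 1 limma model over all samples that held group, dye and slide as fixed terms and treated the 2 samples of an array as correlated. Changes within slide 2 are given where they alter a call, and for Cox6a2 and Cox7a2l. As background of the cells, 13 of 14 fibroblast markers were well above background in all 20 samples, and the mean log2 signal over the 14 was 14.29 to 14.44 in carrier samples. Their mean was 13.5 to 13.8 in the samples of 48 h. Of the 14, 4, 10, 12 and 9 were lower at 6, 24, 48 and 72 h and 0, 0, 0 and 1 higher (limma, adjusted p under 0.05; 0, 0, 0 and 2 higher at an unadjusted p under 0.05), where 11.1%, 19.1%, 20.3% and 22.5% of all features were lower. Fn1, fibronectin, named after its value was seen, was the higher gene at 72 h (0.37 ± 0.08), and Col1a1, the main collagen of connective tissue, was lower at 48 h by a log2 change of -1.46 ± 0.08 (SE). The part of this shift in the results below was not tested, and in bulk samples fewer cells of a type and less RNA per cell cannot be told apart.

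Cox6a2 had by far the widest range of the 9 genes. Cox6a2 codes for the heart and skeletal muscle form of subunit VIa, a small subunit that bears on how the enzyme responds to ATP and ADP. The normalised log2 signal of Cox6a2 was 9.86, 9.59, 8.72 and 8.72 in the 4 carrier samples and 9.94, 10.19, 9.95 and 9.84 in the 4 samples of 6 h. It was 11.85, 11.73, 11.83 and 11.67 at 24 h, 11.71, 11.7, 11.92 and 11.8 at 48 h, and 12.28, 12.2, 12.15 and 12 at 72 h. The samples of 24, 48 and 72 h all lay above the carrier samples. At 6 h the groups touched, since the highest carrier sample was above the lowest 6 h sample, and they separated once dye and slide terms were removed.

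The fitted log2 changes of Cox6a2 against carrier were 0.71 ± 0.12 at 6 h, 2.82 ± 0.14 at 24 h, 2.83 ± 0.12 at 48 h and 3.21 ± 0.14 at 72 h (SE, n = 4 each), which correspond to 1.63, 7.05, 7.1 and 9.23 times the carrier signal. These values made the gene a member, so they are a description with no test. Among named genes, ordered by the size of their rise, Cox6a2 stood at place 148 at 6 h and at places 4, 4 and 7 at 24, 48 and 72 h. Most of the rise lay between 6 and 24 h, with a step of 2.11 ± 0.14, against steps of 0.01 ± 0.13 between 24 and 48 h and 0.38 ± 0.13 between 48 and 72 h.

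The 2 carrier samples on slide 1 held more Cox6a2 signal than the 2 on slide 2. The 6 h change was accordingly 0.34 ± 0.15 within slide 1 and 1.15 ± 0.08 within slide 2 (n = 2 per group). The slides thus differed by 0.82 ± 0.13 in the 6 h change, given as a description. Within slide 2 the changes at 24, 48 and 72 h were 3.04 ± 0.07, 3.05 ± 0.06 and 3.43 ± 0.07.

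**Figure D1:**
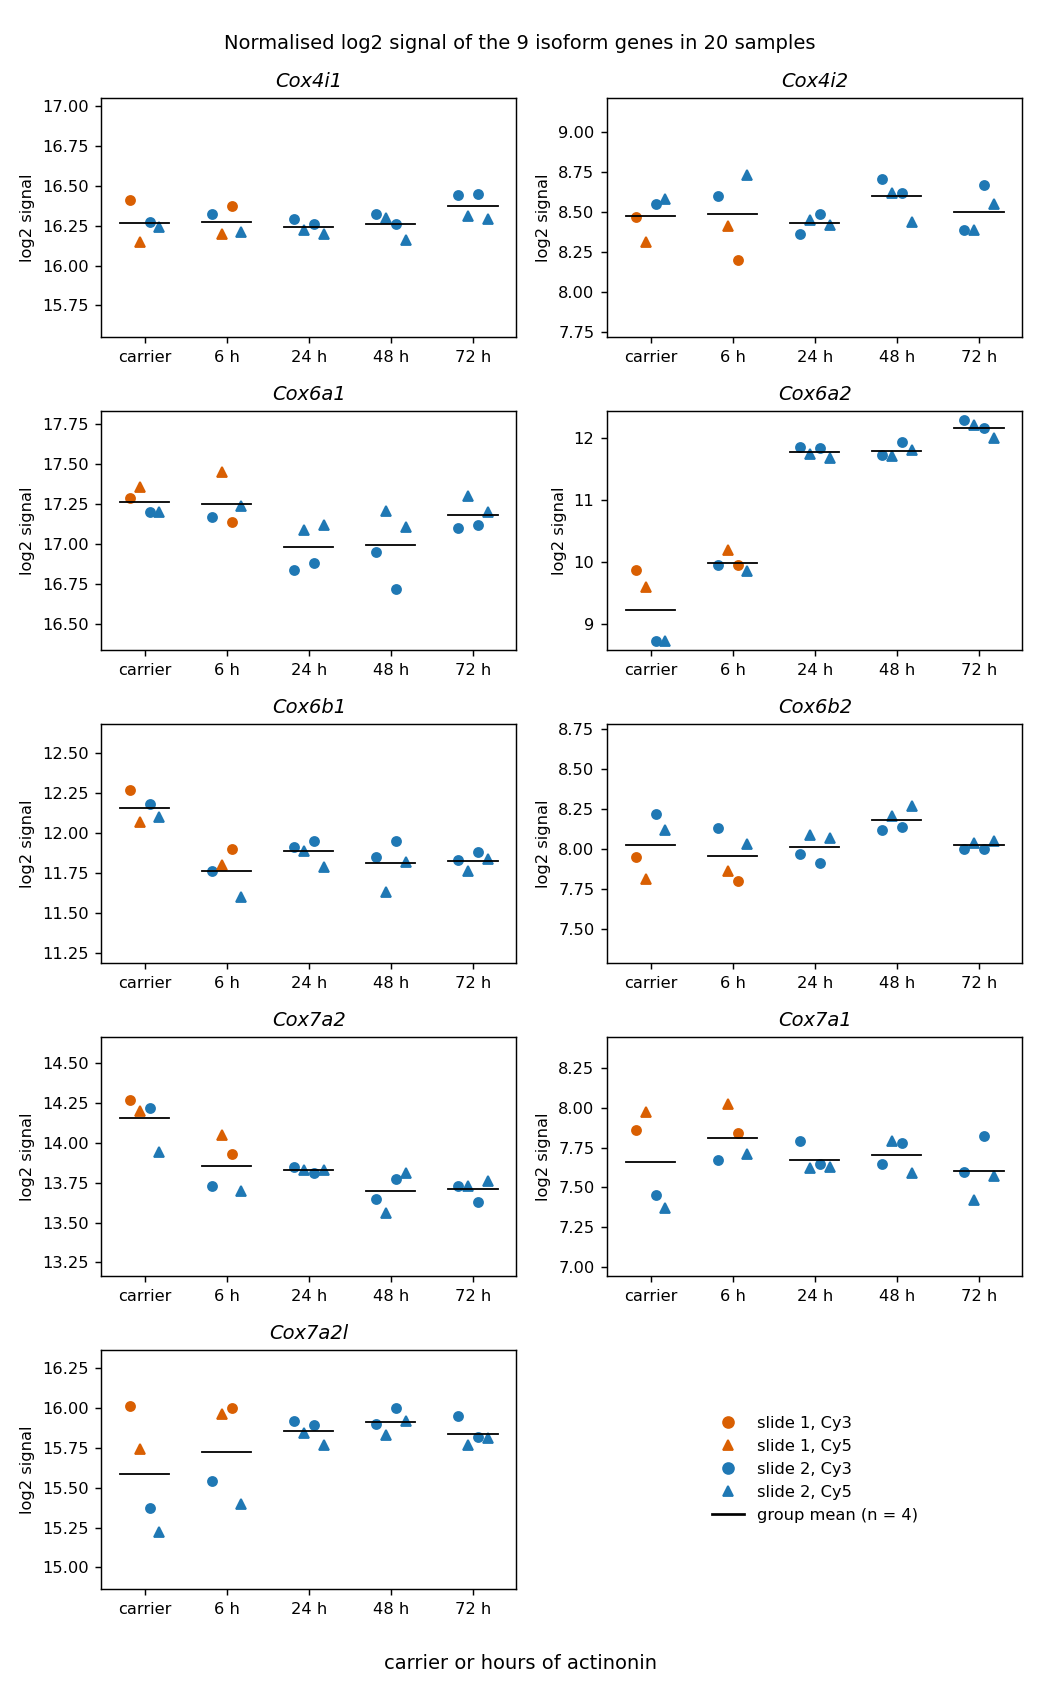
Normalised log2 signal (vertical axis, 1 panel per gene, each with its own scale) in the 4 samples of carrier and of 6, 24, 48 and 72 h of actinonin; orange marks slide 1, blue slide 2, circles Cy3, triangles Cy5, and lines are group means. Cox6a2 lies at 11.67 or above at 24 h and later, against 8.72 to 9.86 in carrier samples, while for Cox7a2l 1 carrier sample, at 16.01, lies as high as the treated ones.

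Cox6a1, the common form of the same subunit, did not follow Cox6a2. Cox6a1 had log2 signals of 17.29, 17.36, 17.2 and 17.2 in carrier samples, 17.17, 17.45, 17.14 and 17.24 at 6 h, and 16.84, 17.09, 16.88 and 17.12 at 24 h. It had 16.95, 17.21, 16.72 and 17.11 at 48 h and 17.1, 17.3, 17.12 and 17.2 at 72 h. Only the 24 h samples lay wholly below the carrier samples. Cox6a1 was lower at 24 h by -0.22 ± 0.07 (limma, adjusted p = 0.0152) and at 48 h by -0.21 ± 0.06 (adjusted p = 0.0106), but not at 6 h (-0.01 ± 0.06, adjusted p = 0.961) or at 72 h (-0.02 ± 0.07, adjusted p = 0.811). Both calls were lost without the second Cy3 carrier sample, with -0.17 (adjusted p = 0.113) at 24 h and -0.15 (adjusted p = 0.13) at 48 h, and with only the 2 groups compared (limma adjusted p = 0.0556 and 0.105). The log2 ratio of Cox6a2 to Cox6a1 changed against carrier by 0.71 ± 0.12, 3.04 ± 0.15, 3.04 ± 0.13 and 3.23 ± 0.15 at 6, 24, 48 and 72 h, almost all of it through Cox6a2.

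The Cox7a family split in opposite directions. Cox7a2, the common form of subunit VIIa, had log2 signals of 14.27, 14.2, 14.22 and 13.94 in carrier samples, 13.73, 14.05, 13.93 and 13.7 at 6 h, and 13.85, 13.83, 13.81 and 13.83 at 24 h. At 48 h it had 13.65, 13.56, 13.77 and 13.81, and at 72 h 13.73, 13.73, 13.63 and 13.76. From 24 h on, every treated sample was below every carrier sample. Cox7a2 fell at all 4 times, with log2 changes of -0.29 ± 0.06, -0.21 ± 0.07, -0.35 ± 0.06 and -0.33 ± 0.07 at 6, 24, 48 and 72 h (limma, adjusted p = 0.000773, 0.0176, 0.000125 and 0.000571). The 24 h call was lost without the second Cy3 carrier sample (-0.12, limma adjusted p = 0.19), with loess alone (-0.18, adjusted p = 0.184), with quantile normalization (-0.16, adjusted p = 0.0584) and with the authors' series matrix (-0.16, adjusted p = 0.0651). Within slide 1 the 6 h call was lost (-0.25, limma adjusted p = 0.648).

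Cox7a2l went the other way. On its brightest probe Cox7a2l had log2 signals of 16.01, 15.74, 15.37 and 15.22 in carrier samples, 15.54, 15.96, 16 and 15.4 at 6 h, and 15.92, 15.84, 15.89 and 15.77 at 24 h. The signals were 15.9, 15.83, 16 and 15.92 at 48 h and 15.95, 15.77, 15.82 and 15.81 at 72 h. As measured, the groups overlapped at every time. At 24, 48 and 72 h the overlap came from 1 carrier sample, the Cy3 sample of slide 1 at 16.01, and the other 3 carrier samples lay below all treated samples of those times. The fitted slide term was -0.55 for slide 2 against slide 1. With dye and slide terms removed, no sample of 24, 48 or 72 h overlapped the carrier samples.

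The fitted log2 changes of Cox7a2l were 0.14 ± 0.04, 0.54 ± 0.05, 0.6 ± 0.05 and 0.52 ± 0.05, or 1.1, 1.46, 1.51 and 1.44 times carrier at 6, 24, 48 and 72 h, given without a test since they chose the gene. Without the slide term they were 0.32 at 24 h and 0.31 at 72 h, while within slide 2 they were 0.56 ± 0.05 and 0.54 ± 0.05. The other Cox7a2l probes gave 0.08 ± 0.06 and 0.2 ± 0.04 at 6 h, 0.5 ± 0.07 and 0.6 ± 0.05 at 24 h, 0.6 ± 0.06 and 0.62 ± 0.05 at 48 h, and 0.53 ± 0.07 and 0.58 ± 0.05 at 72 h. All 3 probes thus moved alike. The step between 6 and 24 h was 0.4 ± 0.05, and the later steps of 0.05 ± 0.05 and -0.07 ± 0.05 were about the size of their errors.

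Cox7a1, the heart, skeletal muscle and brown fat form, did not pass the test at any time, but lay near the threshold at 48 h. Cox7a1 had log2 signals of 7.86, 7.97, 7.45 and 7.37 in carrier samples, and the treated samples ran between 7.42 and 8.02, within or close to the same range. Its log2 changes were 0.11 ± 0.08, 0.18 ± 0.09, 0.21 ± 0.08 and 0.11 ± 0.09 at 6, 24, 48 and 72 h (limma, adjusted p = 0.333, 0.143, 0.0514 and 0.368). At 48 h the 95% interval was 0.03 to 0.38. There Cox7a1 passed the limma test within slide 2 (0.26 ± 0.08, adjusted p = 0.0131), with only the 2 groups compared (0.25, adjusted p = 0.0194), with quantile normalization (0.22, adjusted p = 0.0353), with the authors' series matrix (0.2, adjusted p = 0.0442) and in 7 of the 20 fits that left out 1 sample. At 24 h it passed within slide 2 (0.23 ± 0.09, adjusted p = 0.0489) and with only the 2 groups compared (0.26, adjusted p = 0.0293).

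The promoters of the Cox7a pair that moved apart are shown to set the deposited changes beside the sequence upstream of each gene. Each is the 250 bases before the annotated start, 5′ to 3′ on the gene's strand, from RefSeq on GRCm38.p6. Capitals mark the Sp1 box GGGCGG on either strand. The Cox7a2 window is chr9:79759854-79760103 and the Cox7a2l window chr17:83514334-83514583, both on the minus strand.
Cox7a2: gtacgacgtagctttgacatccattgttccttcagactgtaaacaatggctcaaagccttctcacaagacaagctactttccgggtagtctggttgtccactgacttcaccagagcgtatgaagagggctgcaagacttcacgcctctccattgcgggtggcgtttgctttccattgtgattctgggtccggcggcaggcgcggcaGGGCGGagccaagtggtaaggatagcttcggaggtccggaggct
Cox7a2l: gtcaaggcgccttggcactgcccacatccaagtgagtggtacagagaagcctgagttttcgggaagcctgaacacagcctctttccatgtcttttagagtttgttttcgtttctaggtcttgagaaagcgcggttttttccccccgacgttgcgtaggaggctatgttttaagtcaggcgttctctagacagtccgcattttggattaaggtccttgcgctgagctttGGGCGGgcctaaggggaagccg
Each window held 1 Sp1 box, 44 bases before the start in Cox7a2 and 22 bases before it in Cox7a2l. The box occurred in 32.7% of 32851 such windows. Neither window held the NRF1 core TGCGCA (6.43% of windows), the ETS site CCGGAAG (6.91%) or the ATF4-type element TGATGNAA (3.45%), each searched on both strands. A match is a run of letters and says nothing on binding. Windows matched 6 of the 9 genes.

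The Cox6b genes, whose product sits on the outer face of the enzyme near cytochrome c, showed a small loss of the common form. Cox6b1 had log2 signals of 12.27, 12.07, 12.18 and 12.1 in carrier samples and 11.76, 11.8, 11.9 and 11.6 at 6 h. It had 11.91, 11.89, 11.95 and 11.79 at 24 h, 11.85, 11.63, 11.95 and 11.82 at 48 h, and 11.83, 11.76, 11.88 and 11.84 at 72 h. All 16 treated samples lay below the 4 carrier samples. The log2 changes of Cox6b1 were -0.38 ± 0.05, -0.22 ± 0.06, -0.29 ± 0.05 and -0.28 ± 0.06 at 6, 24, 48 and 72 h (limma, adjusted p = 2.36e-05, 0.00845, 0.000265 and 0.00103). Without the second Cy5 carrier sample the 24 h change was -0.17 (limma adjusted p = 0.0644). With loess alone the calls at 24 h (-0.16, limma adjusted p = 0.255) and 72 h (-0.22, adjusted p = 0.0892) were lost. Within slide 1 the 6 h call was lost too (-0.32, limma adjusted p = 0.493).

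Cox6b2, known from testis and sperm, had log2 signals of 7.95, 7.81, 8.22 and 8.12 in carrier samples and 7.8 to 8.27 in treated samples, so that the groups overlapped. Its changes were -0.07 ± 0.05, -0.15 ± 0.06, 0.03 ± 0.05 and -0.14 ± 0.06 at 6, 24, 48 and 72 h (limma, adjusted p = 0.355, 0.0448, 0.746 and 0.0562). The 24 h call was lost without any 1 of 14 of the 20 samples, with values of -0.18 to -0.11 over all 20 such fits, and it lies at the threshold. At 72 h the call was made within slide 2 (-0.15, limma adjusted p = 0.0465), with the authors' series matrix (-0.15, adjusted p = 0.0363) and without background subtraction (-0.14, adjusted p = 0.0401).

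Cox6b1 and Cox6a1, the common forms lowered with Cox7a2, have the following promoter windows, with the same marking and also with NRF1 cores and ETS sites in capitals. The Cox6b1 window is chr7:30626115-30626364 and the Cox6a1 window chr5:115348959-115349208, both on the minus strand.
Cox6b1: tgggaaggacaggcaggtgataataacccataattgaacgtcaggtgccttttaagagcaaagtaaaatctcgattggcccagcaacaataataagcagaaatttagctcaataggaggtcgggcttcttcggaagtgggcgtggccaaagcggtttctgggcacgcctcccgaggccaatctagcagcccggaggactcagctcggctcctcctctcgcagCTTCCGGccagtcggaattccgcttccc
Cox6a1: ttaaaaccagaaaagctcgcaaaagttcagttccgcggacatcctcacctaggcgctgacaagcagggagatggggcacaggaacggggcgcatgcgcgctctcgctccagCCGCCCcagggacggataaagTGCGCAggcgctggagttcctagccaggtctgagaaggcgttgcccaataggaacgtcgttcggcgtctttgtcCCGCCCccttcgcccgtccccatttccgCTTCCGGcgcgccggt
Cox6a1 held 1 NRF1 core 118 bases before the start, 1 ETS site 16 bases before it and 2 Sp1 boxes, 139 and 44 bases before it. Cox6b1 held 1 ETS site 28 bases before the start and no Sp1 box or NRF1 core. The NRF1 core here is the run TGCGCA alone, so NRF1 sites spelled otherwise are neither marked nor counted. A similar run, gcgcatgcgc, stands unmarked in the Cox6a1 window.

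The Cox4 pair did not pass the test at any time. Cox4i1, the common form of the subunit through which ATP is known to slow the enzyme, ran from 16.15 to 16.41 in carrier samples and from 16.16 to 16.45 in treated samples. Its log2 changes were 0 ± 0.04, -0.02 ± 0.05, 0 ± 0.05 and 0.11 ± 0.05 at 6, 24, 48 and 72 h (limma, adjusted p = 0.98, 0.805, 0.998 and 0.0805), with a 95% interval of -0.1 to 0.1 at 48 h. Cox4i2, the form known from lung and low oxygen, ran from 8.31 to 8.58 in carrier samples and from 8.2 to 8.73 in treated samples. Its changes were -0.01 ± 0.07, -0.19 ± 0.08, -0.02 ± 0.07 and -0.12 ± 0.08 (adjusted p = 0.931, 0.0731, 0.834 and 0.239). The 95% interval of Cox4i2 was -0.37 to -0.02 at 24 h.

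**Figure D2:**
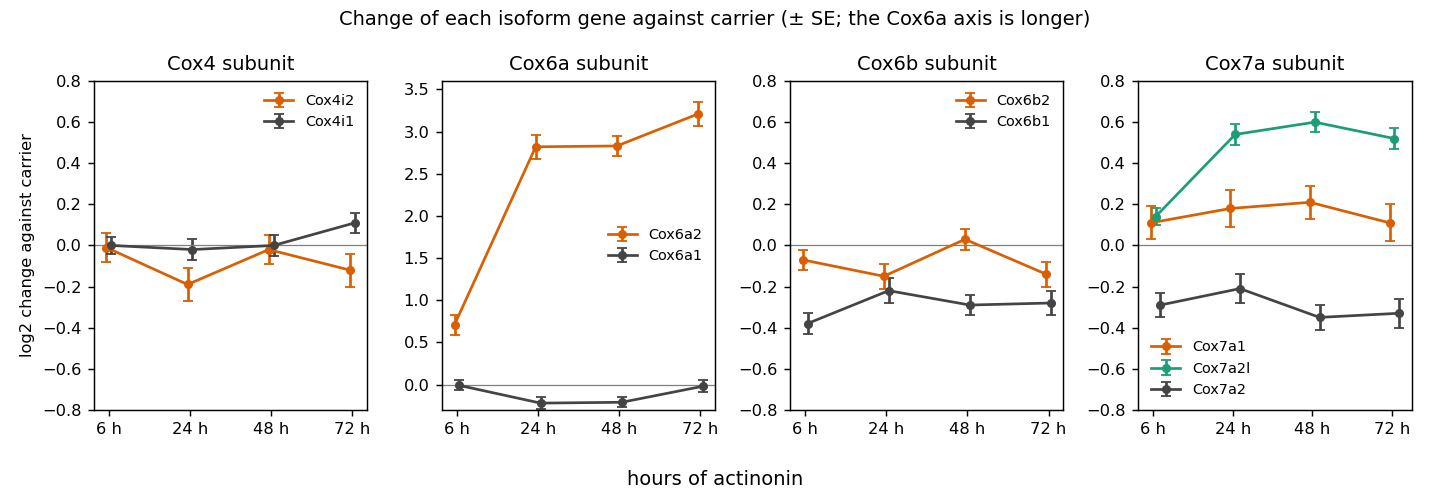
Fitted log2 change against carrier (vertical axis) at 6, 24, 48 and 72 h of actinonin, with bars of 1 standard error, 1 panel per subunit; black lines are the common forms, orange the tissue or regulated forms, green Cox7a2l. Cox6a2 reaches 3.21 on its own longer axis, Cox7a2l holds at 0.52 to 0.6 from 24 h, and Cox7a2 and Cox6b1 lie below 0 throughout.

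Counted over the 7 genes other than Cox6a2 and Cox7a2l, 0 were higher and 2 lower at 6 h, 0 and 4 at 24 h, 0 and 3 at 48 h, and 0 and 2 at 72 h (limma). At an unadjusted p under 0.05, 0, 0, 1 and 1 were higher. Over all 24258 features, 24.8% were called at 6 h (13.7% higher, 11.1% lower), 40.3% at 24 h (21.2% and 19.1%), 41.7% at 48 h (21.5% and 20.3%) and 47.7% at 72 h (25.2% and 22.5%). With 7 genes, the counts of lower genes say nothing particular of the group against these shares. The 9 genes had a median change of -0.01, -0.15, 0 and -0.02 at the 4 times, and the median over all features stayed within 0.01 of 0.

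Calls between neighbouring times are given beside the share of all features, and 7 genes are too few to set them apart from it. Between 6 and 24 h Cox6a1 fell by 0.22 ± 0.07 (adjusted p = 0.0215) and Cox6b1 rose by 0.16 ± 0.06 (adjusted p = 0.0483), where 32.8% of all features were called (16.4% higher, 16.4% lower). Between 24 and 48 h Cox6b2 rose by 0.18 ± 0.05 (adjusted p = 0.0359), where 12.1% of features were called (5.77% higher, 6.36% lower). Between 48 and 72 h Cox6a1 rose by 0.18 ± 0.06 (adjusted p = 0.0415) and Cox6b2 fell by 0.16 ± 0.05 (adjusted p = 0.0302), where 23.2% were called (12.9% higher, 10.3% lower). These limma steps are near the threshold, and the call for each was lost in 3 to 12 of the 20 fits that left out 1 sample.

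Each tissue form was also set against its common partner within each sample. Cox7a1, Cox6b2 and Cox4i2 were dim, with raw signals of 148 to 297, 158 to 369 and 209 to 511. The offset of 50 understates changes of dim genes, so a change that both partners share need not cancel in the ratio. Here the 3 pairs without Cox6a2 or Cox7a2l were tested at 4 times by an exact permutation test of 4 treated against 4 carrier samples, two-sided, whose smallest possible p is 0.0286. The ratio of Cox7a1 to Cox7a2 changed by 0.41 ± 0.1, 0.39 ± 0.12, 0.56 ± 0.11 and 0.44 ± 0.12 at 6, 24, 48 and 72 h in the model. The exact permutation test used ratios with no slide term, whose mean differences were 0.45, 0.34, 0.5 and 0.38, and its p-values were 0.0286, 0.0286, 0.0286 and 0.0571, or 0.0686, 0.0686, 0.0686 and 0.114 after adjustment over 12 tests. As fitted, much of this change was the fall of Cox7a2.

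The ratio of Cox6b2 to Cox6b1 changed by 0.31 ± 0.05, 0.06 ± 0.06, 0.31 ± 0.06 and 0.14 ± 0.06 in the model. The mean differences tested, with no slide term, were 0.32, 0.26, 0.5 and 0.33, with exact permutation p adjusted to 0.152, 0.152, 0.0686 and 0.0686. That of Cox4i2 to Cox4i1 changed by -0.01 ± 0.07, -0.17 ± 0.08, -0.02 ± 0.08 and -0.24 ± 0.08 in the model. Its tested mean differences were 0, -0.02, 0.13 and -0.09, with exact permutation p adjusted to 1, 0.904, 0.152 and 0.445. None of the 12 passed after adjustment. A single ratio could not have passed, however large its change, because the smallest p of the permutation test is 0.0286 over 12 tests. The outcome therefore does not show that the ratios stayed the same. The permutation p-values at 24, 48 and 72 h also carry the slide, since all treated samples but only part of the carrier samples were on slide 2. For Cox7a2l relative to Cox7a2, given without a test, the changes were 0.43 ± 0.05, 0.76 ± 0.06, 0.94 ± 0.06 and 0.85 ± 0.06.

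**Figure D3:**
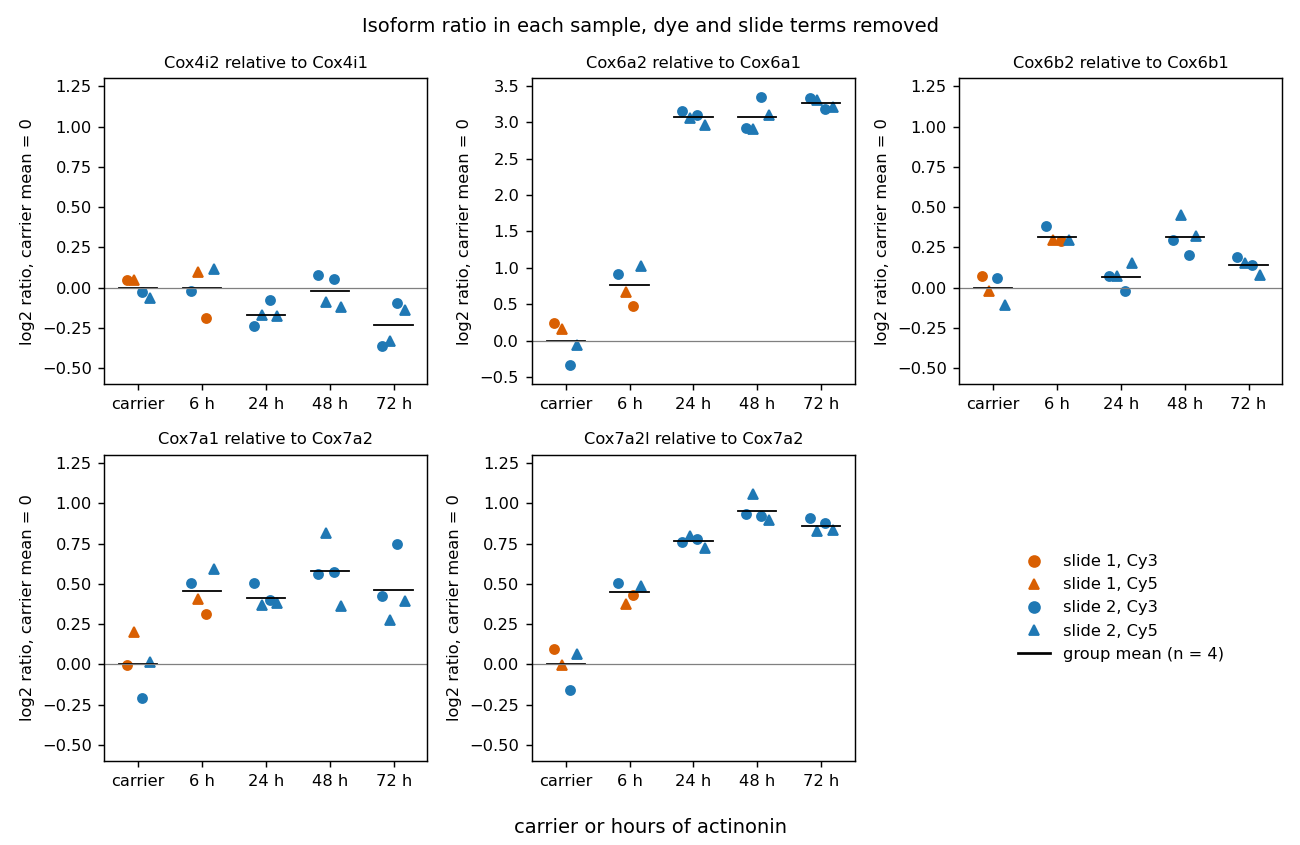
Log2 ratio of each tissue or regulated form to its common partner in each sample, with fitted dye and slide terms removed and the carrier mean set to 0 (vertical axis); colours and shapes as for the signals, lines are group means. The fitted change of the Cox6a2 ratio is 3.04 to 3.23 from 24 h and that of the Cox7a2l ratio 0.76 to 0.94, while that of the Cox4i2 ratio is -0.24 to -0.01.

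The remaining nuclear subunits of complex IV were counted from a list drawn up with results of these data known. Of the 7 tested from a list of 10, 0 were higher and 3, 3, 5 and 4 were lower at 6, 24, 48 and 72 h (limma; 0 higher at an unadjusted p under 0.05 at each time). Over all features 11.1%, 19.1%, 20.3% and 22.5% were lower and 13.7%, 21.2%, 21.5% and 25.2% higher. The counts of this list and of those below are descriptions beside these shares. Cox5a and Cox5b were not called at any time. Cox7b, a small membrane subunit, changed by -0.31 ± 0.05, -0.14 ± 0.06, -0.37 ± 0.05 and -0.36 ± 0.06, with adjusted p between 8.35e-06 and 0.0491. Cox6c, another, changed by -0.15 ± 0.05, -0.26 ± 0.05, -0.35 ± 0.05 and -0.32 ± 0.05, and Ndufa4, once assigned to complex I, by -0.33 ± 0.06 at 48 h and -0.28 ± 0.07 at 72 h. The median of the list was -0.12, -0.14, -0.2 and -0.13. Cox8b, Cox8c and Cox7b2, tissue forms of the other subunits, were not above background in enough samples to be tested.

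Genes that assemble complex IV or bring it copper were called in both directions, as were features at large. Over all features 13.7%, 21.2%, 21.5% and 25.2% were higher and 11.1%, 19.1%, 20.3% and 22.5% lower at 6, 24, 48 and 72 h. Of 25 tested from a list of 27, 5, 7, 7 and 6 were higher and 3, 4, 3 and 8 lower at the 4 times, with medians between -0.01 and 0.07. Surf1, an assembly factor whose loss causes Leigh syndrome in humans, changed by 0.2 ± 0.04, 0.43 ± 0.05, 0.58 ± 0.04 and 0.65 ± 0.05 (limma, adjusted p of 0.000724 or below). Lrpprc, which stabilises mitochondrial mRNAs, was higher by 0.53 ± 0.07 at 24 h, 0.45 ± 0.07 at 48 h and 0.57 ± 0.07 at 72 h. Cmc2, a small protein of the intermembrane space, was lower by -0.24 ± 0.06, -0.73 ± 0.07, -0.59 ± 0.07 and -0.95 ± 0.07.

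Of the factors reported to act on these isoform genes or their proteins, 18 of 22 were tested and 7, 2, 3 and 4 were higher and 1, 3, 4 and 3 lower at the 4 times. Lonp1, a matrix protease reported to degrade the Cox4i1 protein in low oxygen, rose by 0.76 ± 0.06, 1.13 ± 0.07, 1.32 ± 0.06 and 1.41 ± 0.07 (limma, adjusted p between 3.18e-11 and 6.44e-08), while the Cox4i1 transcript did not pass the test. Cxxc5 and Rbpj are reported to bind an oxygen-responsive element of the human COX4I2 promoter. Cxxc5 fell, with changes of -0.44 ± 0.05, -0.82 ± 0.06, -0.85 ± 0.06 and -1.09 ± 0.06, and Rbpj rose by 0.33 ± 0.05, 0.43 ± 0.06, 0.52 ± 0.06 and 0.67 ± 0.06, while Cox4i2 did not pass the test at any time. Chchd2, of the same list, was not called at 6 or 24 h. It was lower at 48 h (-0.26 ± 0.05, limma adjusted p = 0.000545) and at 72 h (-0.22 ± 0.06, adjusted p = 0.00466). Of the muscle regulators in the list, Myog, Myf5 and Myf6 were not above background in enough samples to be tested. Mef2d, a muscle transcription factor, was higher at 6 h (0.23 ± 0.07, limma adjusted p = 0.0149) and lower at 72 h (-0.42 ± 0.08, adjusted p = 0.00026). Mef2a and Myod1 are named after their values were seen. Mef2a was higher at 72 h (0.19 ± 0.06, limma adjusted p = 0.0187). Myod1, a master regulator of muscle, was well above background in 1, 4, 4 and 2 of 4 samples at 6, 24, 48 and 72 h and in 0 of 4 carrier samples, with changes of 0.06 ± 0.06, 0.09 ± 0.07, 0.04 ± 0.07 and 0.1 ± 0.07 that did not pass the test.

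Striated muscle markers, as far as they could be tested, did not rise as a group with Cox6a2. Of 35 markers, 17 were tested and 10 were well above background in all samples, and Myh1, Myh2, Myh4, Ckm, Mb and Ttn, which define mature muscle, were not above background in enough samples. Of the 17, 0 were higher and 2 lower at 6 h, 0 and 5 at 24 h, 1 and 3 at 48 h, and 0 and 3 at 72 h (limma, with 0, 0, 1 and 0 higher at an unadjusted p under 0.05). Among all features, 13.7%, 21.2%, 21.5% and 25.2% were higher and 11.1%, 19.1%, 20.3% and 22.5% lower at these times. Tnnt2, cardiac troponin T, was lower by -1.4 ± 0.09, -1.18 ± 0.08 and -2.28 ± 0.09 at 24, 48 and 72 h, and Eno3, muscle enolase, by -0.29 ± 0.05, -0.69 ± 0.06, -0.3 ± 0.06 and -0.54 ± 0.06 at the 4 times. Myh7, a slow myosin heavy chain, was the 1 higher gene, by 0.21 ± 0.07 at 48 h (adjusted p = 0.0278). The mean log2 signal over the 17 was 8.01 to 8.06 in the 72 h samples and 8.14 to 8.28 in carrier samples.

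Markers of other cells that fibroblast cultures could hold, or in which these forms are known, were also counted. Of 12 brown adipocyte markers 4 were tested, with 1, 0, 1 and 0 higher and 0, 1, 2 and 2 lower, and Ucp1, Cidea and Prdm16 were not above background in enough samples. Fabp4, a fatty acid carrier of fat cells, was lower by -0.75 ± 0.08 at 24 h and -1.04 ± 0.07 at 48 h, where 1 of 4 treated samples was well above background, and at 72 h, where it was not well above background in any treated sample, at least 1.78-fold lower (adjusted p = 2.79e-09). Of 10 male germ cell markers 4 were tested, with 0 higher at any time (0 also at an unadjusted p under 0.05) and 0, 2, 0 and 1 lower. Of 7 macrophage and leukocyte markers 5 were tested, with 0 higher and 0, 3, 2 and 2 lower, and Cd14 was lower by -1.35 ± 0.08 at 72 h. Of 7 epithelial and endothelial markers 2 were tested, with 0 higher and 0, 2, 0 and 1 lower.

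**Figure D4:**
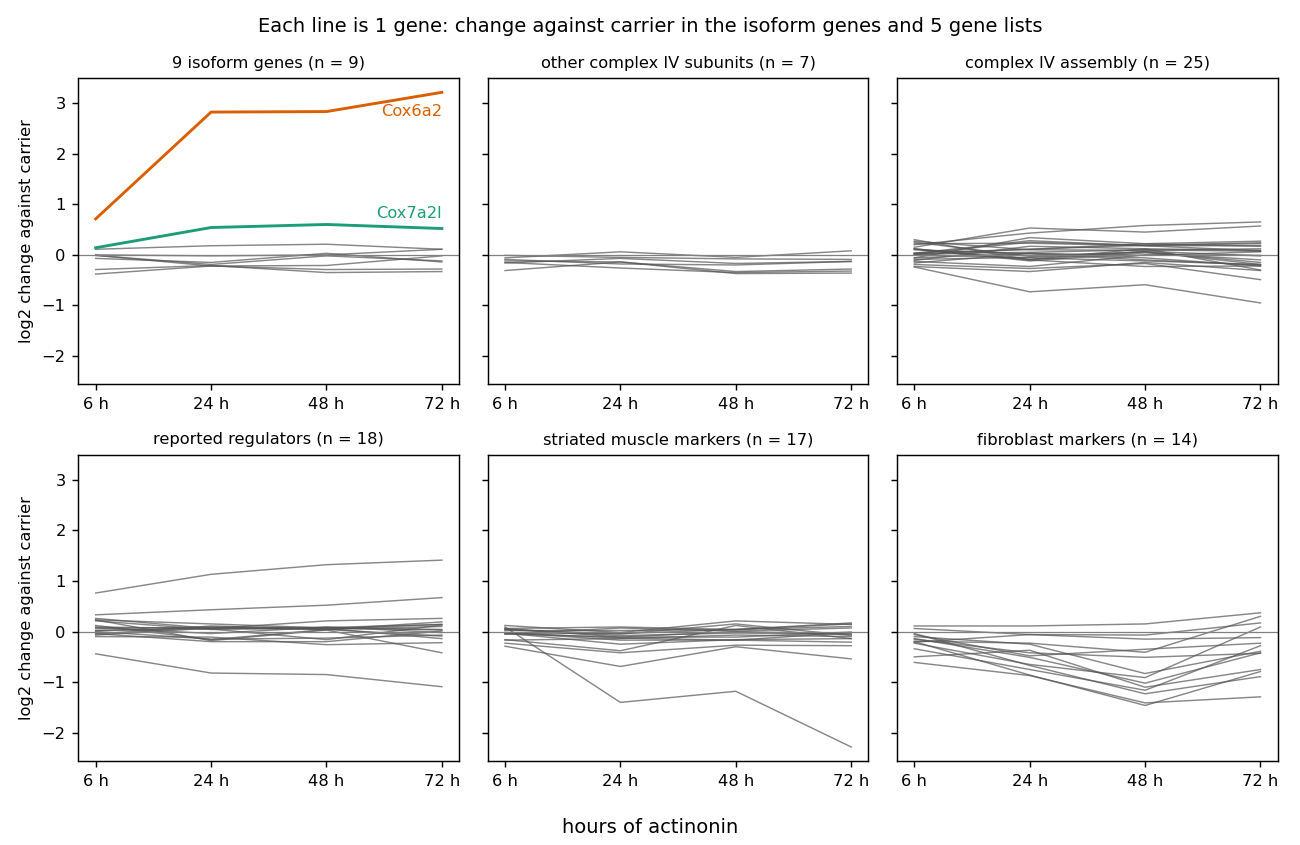
Fitted log2 change against carrier (vertical axis) at 6, 24, 48 and 72 h of actinonin, 1 line per tested gene, for the 9 isoform genes and 5 gene lists. Cox6a2 stands at 2.82 to 3.21 from 24 h, while the 17 striated muscle markers lie between -2.28 and 0.21 and the 7 other subunits between -0.37 and 0.08.

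By the rule for likeness, the 5 named genes closest to Cox6a2 over the 20 samples, dye and slide terms removed, were Cdsn, Htra1, Cp, Gdap1l1 and Phyhd1, with Pearson correlations of 0.994, 0.994, 0.993, 0.99 and 0.987. Cdsn, an adhesion protein of the outer skin, changed by 1.2, 4.56, 4.66 and 5.34, and Cp, the copper carrier ceruloplasmin, by 0.49, 1.93, 2.04 and 2.44 on the log2 scale. The 5 closest to Cox7a2l were Comtd1, Rgl3, Spg11, 1600029O15Rik and 1190007I07Rik, at 0.982, 0.977, 0.976, 0.976 and 0.975. Cox6a2 and Cox7a2l correlated at 0.97 with each other, and Cox6b1 and Cox7a2 at 0.85. These correlations describe 20 samples in 5 groups that share arrays and carrier samples, and carry no p.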

How the data were processed

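Per the labels, RNA of each sample was amplified with labelled nucleotides and read on Agilent two-colour arrays, 1 sample per channel. The deposited intensity values are the median brightness of each spot and its local background, not normalized, read with Agilent Feature Extraction 10.7.3.1 (slide 1) and 11.0.1.1 (slide 2), per the file headers, so the software version and the slide cannot be told apart. As an alternative, the log2 values of the series matrix deposited by the authors were used, given per spot. R 2.15 and limma are the tools in the submitters' processing notes, with the steps not stated there.

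Local background was removed by normexp with an offset of 50, then dyes were matched by loess within arrays and arrays by quantiles of the average intensity between arrays, and averaged over the spots of a probe, using limma 3.58.1 under R 4.3.3. Control spots (3671 of 62976) were dropped and outlying spots left out. RefSeq accessions named 26582 of 28116 probes through a gene table of GRCm38.p6. The array's own annotation is on mm9 per the file headers, so only promoter coordinates, from the table's build, are printed. Probes well above background in 4 or more of the 20 samples were kept, and of several probes for a gene the brightest was read.

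Each feature was fitted with limma on fixed group, dye and slide terms, with a random block per array (correlation 0.25; 13 residual and 4.5 prior degrees of freedom), two-sided, with Benjamini-Hochberg adjustment over all 24258 features and calls at an adjusted p under 0.05. Fold changes are on the log2 scale of offset signals, which understates changes of dim genes. The script was tested on simulated data. Members, lists and tests were chosen with earlier results of these data known. Named were all 9 members, up to 4 called genes of a list per time by smallest adjusted p, and the 5 genes most like a member whose group means spanned 0.5 or more. Genes named as not tested are defining members of their lists, and the NRF1 core was shortened from a longer site after its matches were seen. The alternative within slide 1 was also chosen after seeing the data. Alternatives covered the background correction, normalization, filter, slide term, slides, array, groups, replicate block and each sample left out. Nothing was saturated among the members' probes.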

Additional observations from a re-analysis of the deposited data

Results flagged for a closer look

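The 6 h change of Cox6a2 differed between the slides: it was larger on slide 2 than on slide 1 by 0.82 ± 0.13 on the log2 scale. It is given as a description, since Cox6a2 was chosen for its rise. The spots of slide 1 were read with another software version, and the part of that or of the cultures in the difference was not tested.

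Changes between neighbouring times passed the limma test for 3 of the 7 genes tested. Over all features 32.8%, 12.1% and 23.2% were called at the same 3 steps. Each of these member calls was lost in 3 to 12 of the 20 fits that left out 1 sample. Between 6 and 24 h the values were -0.22 for Cox6a1 and 0.16 for Cox6b1, between 24 and 48 h 0.18 for Cox6b2, and between 48 and 72 h 0.18 for Cox6a1 and -0.16 for Cox6b2.

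No sample stood apart from the other 3 of its group for any of the 9 genes by Dixon's test, over 45 gene and group combinations. Chance marks about 1 in 20 such groups. The test used signals with dye and slide terms left in. The carrier and 6 h groups lay on both slides, which can widen their range and hide a single outlying sample.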

How the results depend on the processing

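At 48 h Cox6b1 and Cox7a2 were called lower in all 30 settings run, including each sample left out, with values of -0.32 to -0.25 and -0.4 to -0.26. Calls at 24 h were the least stable: of the 7 genes, 0 were called with loess within arrays alone, 2 with quantile normalization of all channels, 1 without the array with most spots above background, and 1 to 5 when 1 sample was left out. At 72 h loess alone called 1, and within slide 1 none was called at 6 h, where 20 features were called in all with 4 samples. Genes called moved with loess alone to 6118 (24 h against carrier), 4435 (24 h against 6 h), 340 (48 h against 24 h) and 1783 (72 h against 48 h). Without the slide term they were 5277, 846 and 2653 for the same 3 steps, 2745 at 6 h with only the 2 groups compared, and 1779 to 3301 between 24 and 48 h when 1 sample was left out. The cause was not tested.

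Cox6a2 relative to Cox6a1 was 1.13 within slide 2 and 0.37 within slide 1 at 6 h. At 24 and 72 h it was 2.82 and 3.01 without the slide term and 3.27 and 3.46 with only the 2 groups compared. Without the array with most spots above background it was 2.82, 2.8 and 3.01 at 24, 48 and 72 h. When 1 sample was left out it ran from 2.83 to 3.11, 2.82 to 3.11 and 3.01 to 3.3, the lowest values without the second Cy3 carrier sample. Cox7a2l relative to Cox7a2 was 0.52 within slide 2 and 0.35 within slide 1 at 6 h, 0.62 and 0.71 at 24 and 72 h without the slide term, and 0.86 at 48 h with quantile normalization and with the authors' series matrix. Without that array it was 0.66, 0.86 and 0.76 at 24, 48 and 72 h, and with 1 sample left out 0.66 to 0.79, 0.85 to 0.98 and 0.76 to 0.89. No called result changed its direction, and no change of Cox6a2, Cox7a2l or their ratios did so past its replicate spread. For other results a change of sign without a call was not counted. Cox7a1 at 72 h, for example, ran from -0.05 to 0.19.

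Replicate labels, each a number with a dye, were compared between groups. Deviations of same-labelled samples correlated at -0.61 to 0.2 (median -0.04), and 0 of 20 samples correlated best with their own label. Samples that share an array carry different dyes and so different labels, and equal numbers across dyes were not compared. Whether the numbers pair the samples is thus undecided. With number and dye together as a replicate block, 6230 features were called at 6 h and 3 of the 7 genes at 24 h. There Cox6b2 lost its call (limma adjusted p = 0.0713), as did its step between 24 and 48 h, and no other call of the 7 genes changed. The arrays give no depth, and 20 samples limit the precision.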
